A study of Rattus norvegicus with 43 samples.

Results

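The genes of the mitochondrial respiratory chain and ATP synthase were examined in anterior pituitaries from 43 male rats. Members were chosen by symbol (Ndufa, Ndufb, Ndufc, Ndufs, Ndufv, Sdha to Sdhd, Uqcr, Cox4 to Cox8 and Atp5) among probe sets to which the array annotation gives 1 gene. This gave 96 probe sets and 86 genes, of 14217 genes measured by such probe sets. Each gene was represented by its probe set with the highest mean level. The animals were F2 progeny of Copenhagen (COP) females and ACI males, and all carried a 5 mg implant of diethylstilbestrol (DES), a synthetic estrogen, from 9 weeks of age until sacrifice 12 weeks later. Every animal also received bromodeoxyuridine (BrdU, 50 mg/kg) 4 hours before death. No untreated animals were analysed here. Per the design text, they were picked from the extremes of pituitary weight, 22 at the high end and 21 at the low end. The labels do not say which animal belongs to which end, so all 43 were treated as 1 group, with 1 array for each animal.

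The respiratory chain passes electrons from NADH and succinate to oxygen through complexes I to IV of the inner mitochondrial membrane. The proton gradient that this builds drives complex V, the ATP synthase. Most subunits are encoded in the nucleus, and these are the genes measured here, while the few encoded in mitochondrial DNA carry other symbols. Nuclear respiratory chain genes are known as targets of the transcription factors NRF1, GABP (an ETS factor), YY1 and the estrogen-related receptors, together with coactivators of the PGC-1 family. Lactotrophs, the prolactin cells that estrogens expand in the pituitary of susceptible rats, are secretory cells that use ATP for the synthesis and release of their hormone.

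The promoters of the members were compared with those of all genes for the letters these factors are known to bind. RefSeq promoters (assembly GRCr8, 250 bases before to 50 after the start of the gene) were found for 78 of the 86 members. The YY1 letters AAGATGGCG were present, on either strand, in 11 of 78 member promoters (14.1%), against 1.73% of 33469 promoters and 2.07% of promoters of protein coding genes. The NRF1 letters, GCGC followed by any pair of bases and GCGC, were present in 16 member promoters (20.5%), against 5.58% and 7.46%, and the form with A and T as the middle pair, which the looser form includes, in 5 (6.41%), against 0.852% and 1.08%. The ETS letters CCGGAAGT were present in 8 (10.3%), against 3.81% and 4.77%. TCAAGGTCA, the element of the estrogen-related receptors, was present in 2 member promoters (2.56%), against 0.433% and 0.366%. GGGCGG, the Sp1 box, was found in 43.6% of member promoters and 41.8% of protein coding promoters, and TATAAA in 10.3% and 13.0%. These are descriptions of letters in a window and not of bound sites. The promoters had a median GC content of 56.0%, against 55.0% for protein coding genes. The promoters of 4 members are shown, because they carry these letters and because their genes differ in how they varied between animals. Capitals mark the YY1, NRF1 or ETS letters on either strand. They are those of Ndufs6 (chr1:31797150-31797449, + strand), with 2 overlapping NRF1 matches and a YY1 match, Atp5mf (chr12:14535185-14535484, + strand), with a YY1 match, and Uqcrh (chr5:134790833-134791132, - strand) and Ndufs1 (chr9:72073556-72073855, - strand), each with an ETS match.
Ndufs6: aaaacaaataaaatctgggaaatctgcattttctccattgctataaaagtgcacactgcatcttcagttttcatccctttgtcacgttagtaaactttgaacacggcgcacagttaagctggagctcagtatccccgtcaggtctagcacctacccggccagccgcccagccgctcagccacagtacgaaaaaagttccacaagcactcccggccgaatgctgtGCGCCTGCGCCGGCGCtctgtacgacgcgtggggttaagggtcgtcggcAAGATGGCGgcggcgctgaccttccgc
Atp5mf: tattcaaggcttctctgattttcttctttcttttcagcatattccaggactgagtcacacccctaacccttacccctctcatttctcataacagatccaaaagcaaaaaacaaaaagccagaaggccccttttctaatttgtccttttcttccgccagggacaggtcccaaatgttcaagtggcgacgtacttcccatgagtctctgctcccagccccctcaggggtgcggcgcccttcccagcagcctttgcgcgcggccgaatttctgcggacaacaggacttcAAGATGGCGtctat
Uqcrh: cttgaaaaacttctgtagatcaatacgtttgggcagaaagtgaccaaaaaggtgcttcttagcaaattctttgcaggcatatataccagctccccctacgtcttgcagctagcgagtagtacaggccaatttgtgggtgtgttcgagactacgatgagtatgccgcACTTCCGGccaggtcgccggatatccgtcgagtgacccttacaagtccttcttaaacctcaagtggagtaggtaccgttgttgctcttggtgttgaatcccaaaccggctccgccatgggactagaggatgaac
Ndufs1: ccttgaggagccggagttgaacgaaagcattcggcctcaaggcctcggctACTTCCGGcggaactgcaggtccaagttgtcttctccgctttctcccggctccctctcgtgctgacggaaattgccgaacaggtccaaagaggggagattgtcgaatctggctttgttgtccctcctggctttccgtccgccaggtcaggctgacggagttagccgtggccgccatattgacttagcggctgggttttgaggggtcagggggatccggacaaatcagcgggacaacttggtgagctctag

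Levels are given as log2(intensity + 16), with intensities as deposited. A probe set passed the filter on dim probe sets when its mean level was above 7.16, the median of all probe sets that were not controls. Of the 86 members 81 passed. All 6 core subunits of complex I, its 30 accessory subunits and 6 assembly factors passed, as did the 4 subunits of complex II, the 7 of complex III, 12 members of complex IV, among them the restricted isoform Cox4i2, and the 16 of complex V. Here Atp5po and the inhibitor Atp5if1 were counted with the F1 head of complex V, and the remaining members with its membrane part (FO) and stalk. The 5 that did not pass were all isoforms of complex IV known from striated muscle or testis. Cox6a2 had a median of 4.77, Cox8b of 4.53 and Cox7a1 of 6.23, the isoforms of heart and skeletal muscle. Cox6b2 and Cox7b2, known from testis, had medians of 5.55 and 5.49. The highest of the 43 animals reached 7.18 for Cox7a1 and no more than 6.57 for the other 4. Brightness is not calibrated between probe sets, so a dim probe set is not shown to be an absent transcript. Their common counterparts Cox6a1, Cox8a, Cox6b1 and Cox7b passed the filter with medians of 13.17, 13.21, 13.05 and 14.07.

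Of the paired isoforms of subunit 4, Cox4i1 is the common form and Cox4i2 the form of lung and of low oxygen. Cox4i1 ranged from 13.13 to 13.97 with a median of 13.63. Cox4i2 passed narrowly, with values from 6.48 in animal 43 to 8.28 in animal 2 and a median of 7.41. Ndufa4, listed with complex I but now placed with complex IV, ranged from 13.56 to 14.92 (median 13.89), and its paralog Ndufa4l2, known to be induced by low oxygen, from 7.02 to 8.58 (median 7.79). The levels of paired isoforms come from different probe sets and were not set against each other. The symbol Cox6c-ps1 (median 7.47) names a pseudogene of Cox6c, and a close copy can share signal with its parent. Another 7 probe sets that the annotation gives to several genes at once, among them probe sets of Cox7a2 and Ndufs5, were not used.

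Markers of tissues that could be carried along gave mixed values. Of 15 striated muscle markers with a probe set, 2 passed the filter, Acta1 and Des, the genes of skeletal actin and desmin, and Ckm, muscle creatine kinase, did not. Avp and Oxt, the hormones of the posterior lobe, had medians of 5.10 and 5.03 and did not pass, but the other 4 of 6 posterior lobe and neural markers did (Gap43, Mbp, Nefl and Nefm). So did 3 of 4 erythroid markers. The part of these tissues in the members' levels was not tested. Prl, the prolactin gene that defines lactotrophs, ranged from 15.40 to 16.14 with a median of 15.63. In bulk tissue such as this, fewer cells of a type and less RNA per cell cannot be told apart.

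Most members varied little between animals. Their median SD over the 43 animals was 0.178, against 0.233 for all 15521 probe sets that passed and 0.169 for the brightest 25% of them, which holds 70 of the 81 members. Of the members 64 had an SD under the median of all probe sets, and 49 an SD over the median of the brightest 25%. The range ran from 0.0906 for Sdhc, a membrane anchor of complex II, to 0.498 for Atp5mk, a small subunit of FO.

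The steadiest and the most variable members of each complex were as follows. In complex II, Sdhc ranged from 11.35 to 11.70 (median 11.56), whereas Sdhd, the other membrane anchor, ranged from 11.27 to 12.49 (median 11.72, SD 0.203). Uqcrc1, a large core protein of complex III, had the smallest SD there (0.0969, values 12.00 to 12.50), and Uqcrq, a small subunit, the largest (0.223, values 12.56 to 13.65). In complex IV, Cox6b1 had an SD of 0.0930, and the restricted isoform Cox4i2 the largest, 0.386. Next were the pseudogene Cox6c-ps1 with 0.337 and Cox7c, a small subunit, with 0.256. Among the F1 subunits, which form the catalytic head of ATP synthase, Atp5f1b, the catalytic beta subunit, had an SD of 0.0934 with values from 13.35 to 13.88, and Atp5f1e, the epsilon subunit, an SD of 0.184. In the core of complex I, Ndufs1, the large iron-sulfur subunit, had an SD of 0.119 and Ndufv2 one of 0.231. Among accessory subunits Ndufa8 had the smallest SD (0.111) and Ndufb1 the largest (0.375, values 11.42 to 13.32). In the FO part and stalk, Atp5mc3, a subunit of the rotating ring, had an SD of 0.127, with Atp5mk at the other end, and among assembly factors Ndufaf3 had 0.169 and Ndufaf5 0.252. These SDs include 1 array that stood apart, that of animal 43.

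The array of animal 43 had a mean correlation of 0.927 with the others over the probe sets that passed, against 0.967 to 0.976 for the other 42. RNA quality was read from the control probe sets at the 3' and 5' ends of 2 transcripts. The 3' end exceeded the 5' end of actin by 1.97 log2 units in animal 43 and by 1.26 to 1.67 in the others, and that of GAPDH by 0.453, against 0.0455 to 0.292. Animal 43 was the highest of the 43 animals in 40 of the 81 members (49.4%), against 16.4% of all probe sets, and the lowest in 18 (22.2%), against 25.4%. Both directions occurred within complexes I, IV and V.

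**Figure D1:**
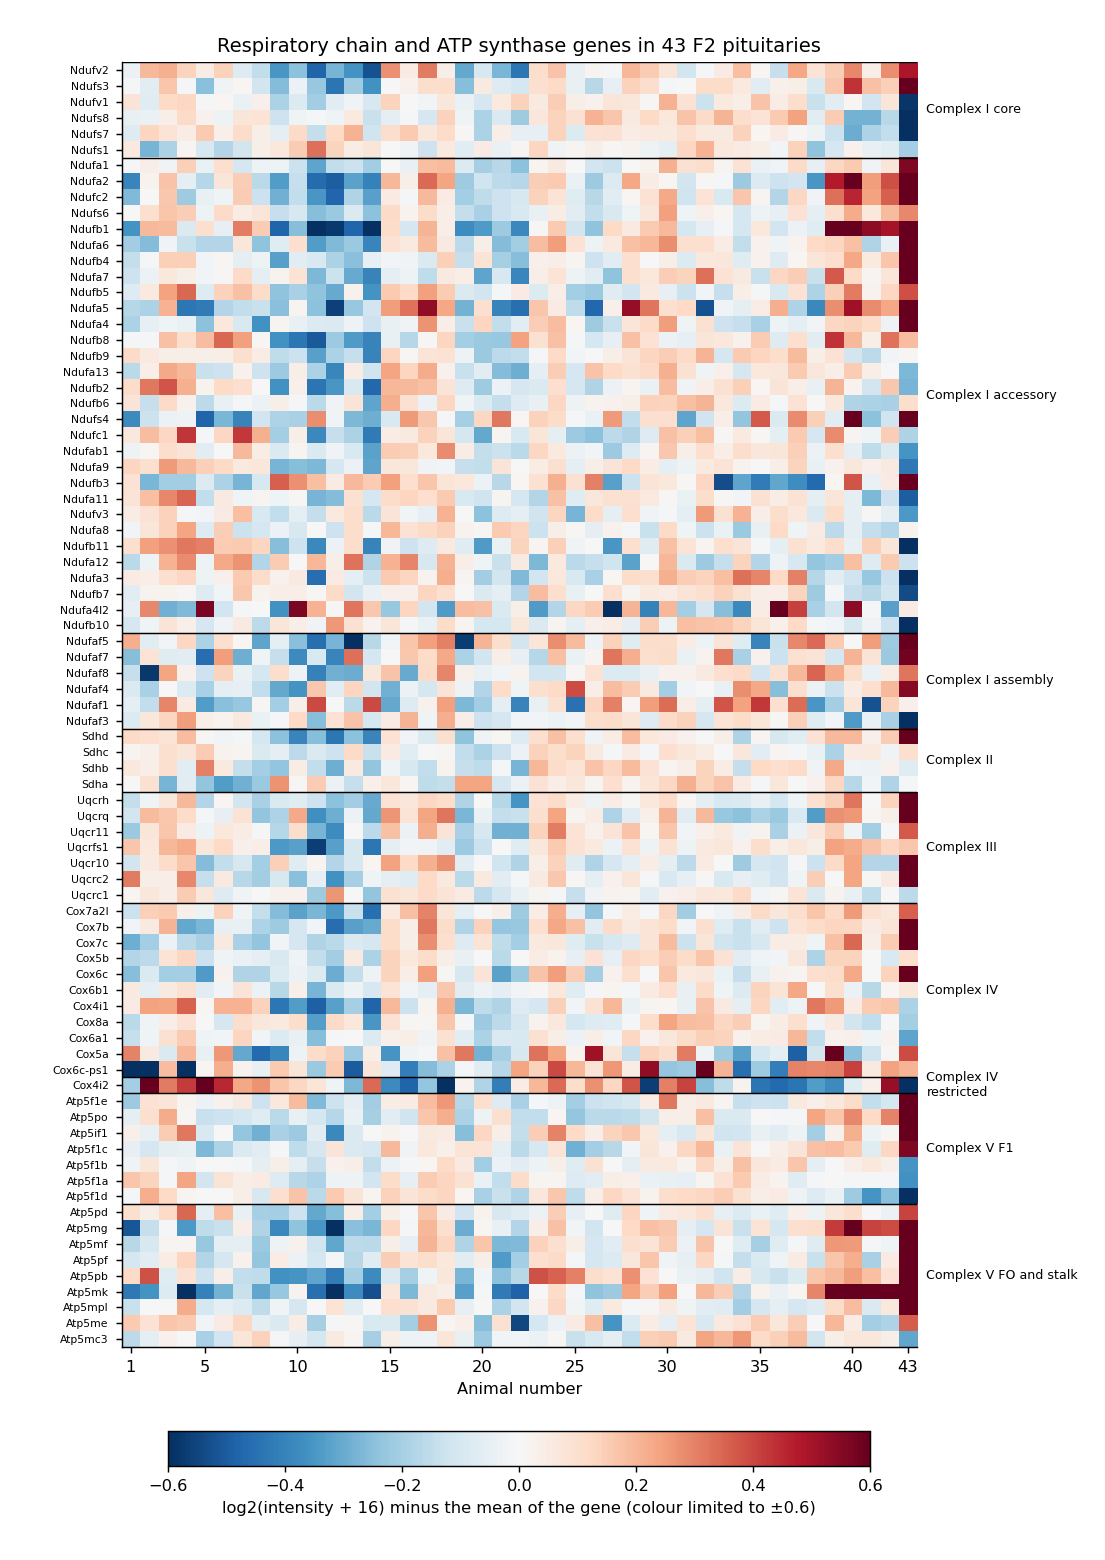
Level of the 81 members that passed the filter (rows, grouped by complex) in each of the 43 animals (columns), as log2(intensity + 16) minus the mean of the gene, with colour from blue (lower) to red (higher). Animal 43, in the last column, is the highest in 40 members and the lowest in 18, and animals 11, 12 and 14 are lower in many members of each complex.

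Animal 43 was highest in 8 of 9 members of the FO part and stalk of ATP synthase and in 5 of 7 members of complex III, with none of complex III at the lowest value. In complex I it was highest in 13 and lowest in 8 of 30 accessory subunits, and highest in 2 and lowest in 3 of 6 core subunits. Atp5mf, an FO subunit, ranged from 13.40 to 13.97 in 42 animals and was 14.84 in animal 43. Cox7c ranged from 13.01 to 13.64 in 42 animals and was 14.66 in animal 43. Uqcrh, the hinge protein of complex III, ranged from 13.30 to 13.97 and was 14.69 in animal 43. In these 3 genes animal 43 lay above a gap wider than the whole range of the other animals. The opposite held for Ndufs7, an iron-sulfur core subunit of complex I, which ranged from 11.14 to 11.65 in 42 animals and was 10.58 in animal 43, and for Ndufb10, an accessory subunit, which ranged from 11.74 to 12.16 and was 11.04 in animal 43. Sdha, the flavoprotein of succinate dehydrogenase, was 11.29 in animal 43, inside its range of 10.97 to 11.57.

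**Figure D2:**
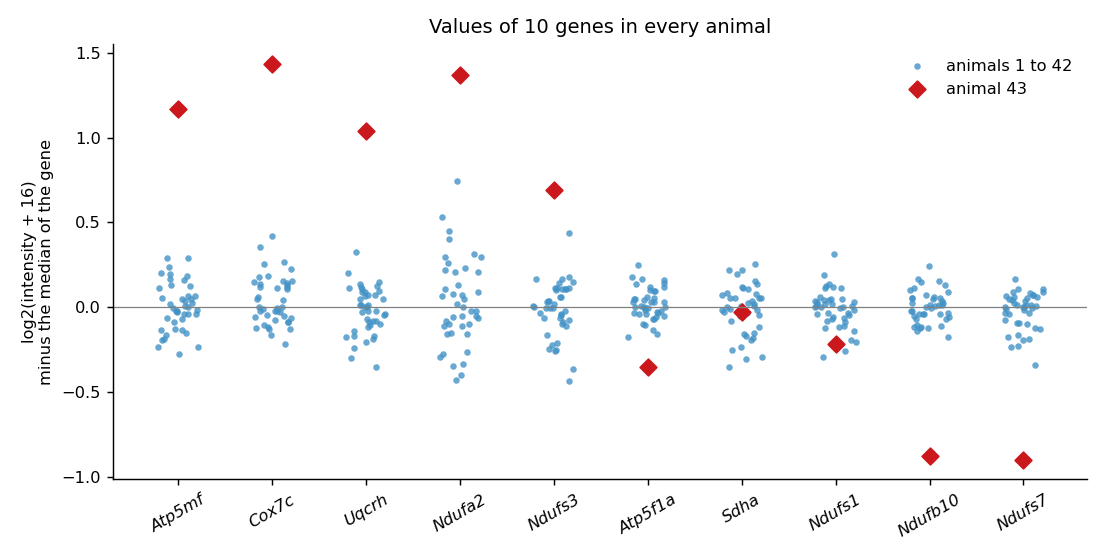
Level of 10 members in each animal, as log2(intensity + 16) minus the median of the gene, with animals 1 to 42 as blue points (spread sideways only for visibility) and animal 43 as a red diamond. Animal 43 lies above all other animals in Atp5mf, Cox7c, Uqcrh, Ndufa2 and Ndufs3, below them in Atp5f1a, Ndufb10 and Ndufs7, and among them in Sdha and Ndufs1.

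Because members can differ in how they respond to RNA quality, each was regressed on the actin difference and, separately, on the GAPDH difference. The fits used limma across all 15521 probe sets, with Benjamini-Hochberg adjustment over all of them, a threshold of adjusted p 0.05, and slopes in log2 units of the gene per log2 unit of the control difference. On the actin difference 37 of 81 members had a higher level (45.7%), against 11.2% of all probe sets, and 10 a lower level (12.3%), against 19.3%. Among the brightest 25% of probe sets 24.9% were higher and 22.4% lower. The median slope of the members was 0.48, against -0.16 over all probe sets. Members called higher came from every complex: 7 of 9 in FO and stalk, 5 of 7 in complex III, 4 of 7 in F1, 4 of 11 in complex IV, 13 of 30 accessory and 2 of 6 core subunits of complex I, 1 of 6 assembly factors and 1 of 4 in complex II. After quantile normalization of the arrays 12 members were higher and 10 lower, against 4.52% and 6.35% of all probe sets.

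Ndufa2, an accessory subunit of complex I, ranged from 12.31 in animal 12 to 14.12 in animal 43, with a median of 12.74. Its slope on the actin difference was 1.93 ± 0.28 (SE, n = 43, adjusted p = 2.1e-06 by limma). Uqcrh had a slope of 1.27 ± 0.19 (adjusted p = 3e-06) and Ndufa4 one of 1.21 ± 0.18 (adjusted p = 4.64e-06). The 3 members with the lowest t were all of complex I. Ndufb10 had a slope of -0.92 ± 0.16 (adjusted p = 2.89e-05), and Ndufs8 and Ndufs7, core subunits that carry iron-sulfur clusters, slopes of -0.94 ± 0.17 (adjusted p = 5.49e-05) and -0.85 ± 0.18 (adjusted p = 0.000391). Ndufa2, Uqcrh and Ndufa4 each had their highest value, and Ndufb10, Ndufs8 and Ndufs7 each their lowest, in animal 43.

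These calls rested largely on animal 43. Without it 4 of 81 members were higher on the actin difference (4.94%), against 0.522% of all probe sets, and 0 were lower, against 0.999%, with 29 members higher and 2 lower at an unadjusted p under 0.05, against 5.97% and 8.96% of all probe sets. The 4 were Ndufa2 with a slope of 1.49 ± 0.36 (limma adjusted p = 0.0273), Atp5pb, a stalk subunit, with 1.22 ± 0.30 (adjusted p = 0.0304), Uqcrq with 1.10 ± 0.28 (adjusted p = 0.035), and Ndufc2 with 1.06 ± 0.29 (adjusted p = 0.0492). Without animal 43 the slope was above 0 in 59 of 81 members, 50 of which also had a slope above 0 with it, against 43.6% of all probe sets, and the median slope of the members was 0.29, against -0.08. For Ndufs7 the slope without animal 43 was -0.24 ± 0.20, and for Ndufb10 -0.36 ± 0.17.

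**Figure D3:**
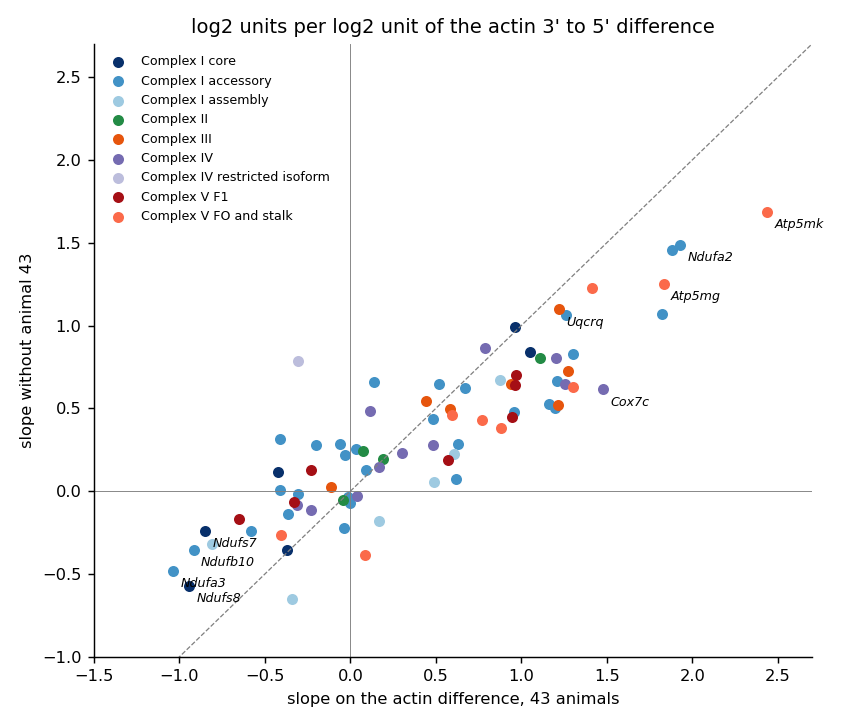
Slope of each of the 81 members on the actin 3' to 5' difference, in log2 units per log2 unit, with all 43 animals (x axis) and without animal 43 (y axis), coloured by complex, with the line of equal slopes dashed. Most points with a positive slope lie between the x axis and the dashed line, and the points of Ndufs7, Ndufb10 and Ndufs8 move toward 0 without animal 43.

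On the GAPDH difference 25 of 81 members were higher (30.9%), against 6.02% of all probe sets, and 8 were lower (9.88%), against 9.51%. Atp5mk had a slope of 4.44 ± 0.76 (adjusted p = 0.000468), Cox7c 2.30 ± 0.40 (adjusted p = 0.000491) and Ndufa7, an accessory subunit of complex I, 1.74 ± 0.33 (adjusted p = 0.000708). At the other end stood Ndufaf3, an assembly factor of complex I, with -1.45 ± 0.29 (adjusted p = 0.00117), Ndufs7 with -1.33 ± 0.31 (adjusted p = 0.00396) and Ndufa11 with -1.12 ± 0.29 (adjusted p = 0.00775). Without animal 43 limma called 0 members and 0 of all 15521 probe sets, with 10 members higher and 3 lower at an unadjusted p under 0.05, against 4.21% and 4.43% of all probe sets. The actin and GAPDH differences had a Pearson r of 0.546 (permutation p = 0.00201, adjusted over 3 relations 0.00603) and a Spearman rho of 0.151 (permutation p = 0.331, adjusted p = 0.84), and without the 2 animals farthest from the median actin difference r was 0.0841, so the Pearson relation rested on those animals. The proliferation score had an r of -0.164 with the actin difference and of -0.160 with the GAPDH difference (adjusted permutation p = 0.275 for both).

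Another run of animals stood out in a few members, and was noticed after the values were seen. In Atp5mk, animals 39 to 42 lay between 14.14 and 14.37 and animal 43 at 15.05, whereas animals 1 to 38 reached no more than 13.55 around a median of 13.15. In Ndufb1, animals 39 to 42 lay between 12.55 and 12.85, against at most 12.36 in animals 1 to 38. Atp5mg and Ndufc2 also had all 5 of these animals above the other 38, with 13.70 against 13.50 and 12.77 against 12.75 for the lowest of the 5 and the highest of the 38. These were 4 of 81 members (4.94%), against 0.341% of all probe sets, and no member had all 5 below the others. The actin difference of animals 39 to 42 was 1.44 to 1.67 and their GAPDH difference 0.152 to 0.292, and the upper end of both was the highest of all animals but 43. The part of RNA quality in these values was not tested. Without animals 39 to 43, 0 members were called on the actin difference by limma in either direction, against 0 and 0.0773% of all probe sets, with 16 members higher and 0 lower at an unadjusted p under 0.05, against 4.21% and 7.24% of all probe sets.

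Members tended to vary together over animals. The mean pairwise Pearson r among the 81 members was 0.194 (0.242 without animal 43), against 0.00735 (0.00252) among all probe sets that passed and 0.0104 (0.0126) among the brightest 25%. It was 0.605 (0.651) among 29 genes of the cytosolic ribosome and 0.321 (0.340) among 38 mitotic genes. Lower values were 0.153 (0.189) for defence against reactive oxygen in mitochondria, 0.127 (0.121) for glycolysis and 0.0963 (0.124) for the mitochondrial ribosome. Mitochondrial carriers had 0.0316, cytochrome c and assembly factors 0.0284, the citric acid cycle 0.00823 and regulators of biogenesis -0.000819. For the members it was 0.121 after quantile normalization and 0.298 after subtraction of array medians. Points of these correlations share an array, its scaling and its RNA, so they are given as descriptions over 43 animals. Of 3240 pairs 67.7% were above 0, and 79.4% without animal 43. Pairs with r above 0.7 numbered 289 with animal 43 and 112 without it, and pairs below -0.5 numbered 106 and 4.

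Within complexes, the mean pairwise r was 0.422 in FO and stalk (0.335 without animal 43), 0.399 in complex III (0.371), 0.257 in complex IV (0.305), 0.206 among accessory subunits of complex I (0.272) and 0.146 in complex II (0.174). It was 0.0794 in the core of complex I (0.126), 0.0753 among its assembly factors (0.104) and 0.0699 in F1 (0.190). The mean r with members outside the group was 0.240 for FO and stalk, 0.264 for complex III and 0.231 for complex IV. It was 0.192 for accessory subunits, 0.165 for complex II, 0.0882 for the core, 0.129 for assembly factors and 0.172 for F1. In complex II, the core, assembly factors and F1 the r within the group was thus the lower, with and without animal 43. The highest pair was Ndufb1 with Ndufc2, both in the membrane arm of complex I, with r of 0.924 (0.894 without animal 43). Atp5mg with Atp5mk, both in FO, had 0.920 (0.883). The lowest was Cox7c with Ndufs7, at -0.751, which was -0.306 without animal 43. No test of the difference between complexes was made.

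The r of each member with the mean of the other 80 was above 0 in 67 members, and in 75 without animal 43. It was 0.867 for Ndufv2 and 0.866 for Ndufs3, core subunits of complex I, 0.867 for Ndufa1 and 0.846 for Ndufs6, accessory subunits, and 0.832 for Uqcrh. It was -0.402 for Ndufs1, a core subunit like Ndufv2, and -0.324 without animal 43. Sdha, which also serves the citric acid cycle, had -0.164, and the flavoprotein subunit Ndufv1 of complex I -0.0520 (0.455 without animal 43). Ndufs1 and Sdha thus ran apart from most members with and without animal 43, whereas Ndufv1 did so only with it.

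Low values gathered in few animals. Animal 12 was the lowest in 15 members, animal 14 in 12 and animal 11 in 9, together 36 of 81, whereas these 3 animals were the lowest in 7.92% of all probe sets. Their proliferation scores, the mean centred level of 38 mitotic genes, were 0.37 (animal 11), 0.15 (animal 12) and 0.25 (animal 14), and their actin differences lay between 1.29 and 1.38. The part of either in the low values was not tested. The mean of the 81 members after centring each gene, called the member score, was between -0.18 and 0.14 in 42 animals and 0.28 in animal 43. Its r with the actin difference was 0.585 (0.406 without animal 43), and with the GAPDH difference 0.452 (0.221). Within animals 1 to 22 and within animals 23 to 43 these were 0.396 and 0.806 for actin, and -0.158 and 0.783 for GAPDH. Within animals 23 to 42, without animal 43, they were 0.568 for actin and 0.524 for GAPDH. Its r with the mean of all probe sets was -0.636, and with the mean of the brightest 25% 0.545, after the scaling of the arrays by the authors.

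**Figure D4:**
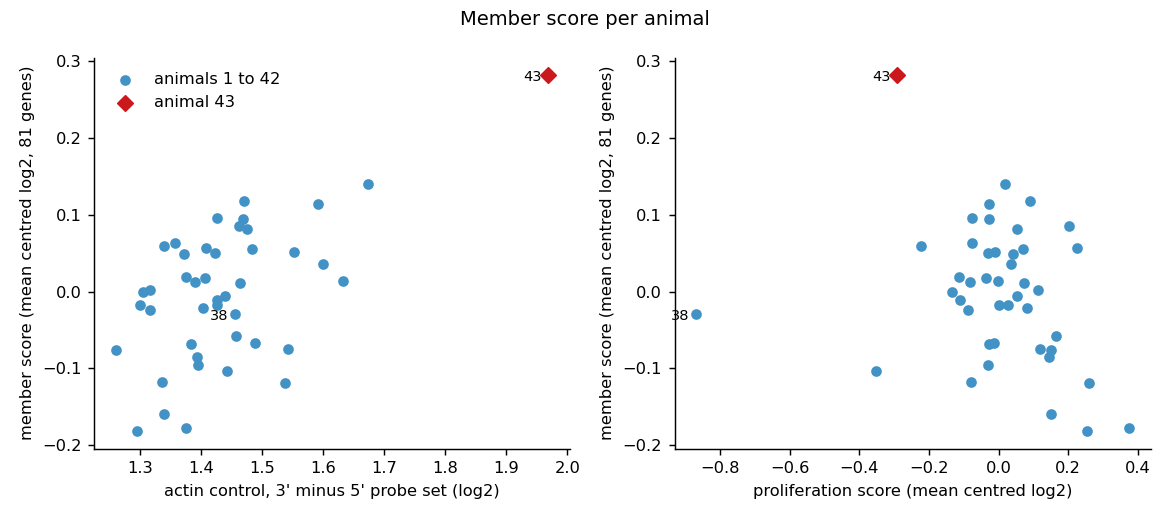
Member score of each animal, the mean over 81 members of centred log2(intensity + 16), against the actin 3' to 5' difference in log2 units (left) and against the proliferation score (right), with animal 43 as a red diamond and animal 38 marked. Animal 43 has the highest member score, 0.28, and the largest actin difference, 1.97, and animal 38 the lowest proliferation score, -0.87.

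Where 2 probe sets of a gene both passed, they were compared as a check on the measurement. Both probe sets of Sdhd had an r of 0.848 over animals (0.747 without animal 43), those of Uqcrc2 0.670 (0.501) and those of Ndufa7 0.547 (0.439). Those of Ndufaf7 and Ndufv3 had 0.225 and 0.122, so values of these last genes depend on the probe set.

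The 10 genes outside the members with the highest r with the member score, of 9326 genes compared, came from several compartments. They were Chchd2l3 (0.892), Txn1, thioredoxin (0.883), Rpl27, a ribosomal protein (0.877), Brk1 (0.863), Tomm7 of the mitochondrial import pore (0.863), Psmb3 and Psmb1, proteasome subunits (0.857 and 0.842), Arpc3, an actin nucleation subunit (0.850), Mpc1, the mitochondrial pyruvate carrier (0.846), and Pfdn1, a prefoldin subunit (0.845). Without animal 43 these r values were 0.790 to 0.883.

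Of the other lists of mitochondrial genes, the mean level of 73 genes of the mitochondrial ribosome had an r of 0.853 with the member score (0.816 without animal 43). That of 30 genes of cytochrome c and of assembly and supercomplex factors had 0.765 (0.739), and that of 11 genes of defence against reactive oxygen in mitochondria 0.687 (0.757). The 29 genes of the cytosolic ribosome had 0.719 (0.622). By contrast 16 genes of the citric acid cycle and pyruvate dehydrogenase had -0.163 (-0.108), and 22 genes of glycolysis -0.135 (0.0907). Among single genes Sod2, the superoxide dismutase of mitochondria, had 0.787 (0.728 without animal 43), and Cs, citrate synthase, the entry enzyme of the citric acid cycle, -0.296 (-0.112). Of the regulators, Tfam, which maintains mitochondrial DNA, had 0.450, Gabpa 0.224, Nrf1 -0.163 and Esrra -0.173, and Ppargc1a, the gene of PGC-1 alpha, did not pass the filter. Within animals 1 to 22 and within animals 23 to 43, numbers that are no label of a group, the r was 0.919 and 0.678 for the mitochondrial ribosome, 0.637 and 0.726 for cytochrome c and assembly and supercomplex factors, 0.622 and 0.664 for the cytosolic ribosome and 0.803 and 0.223 for defence against reactive oxygen. Markers of gonadotrophs had 0.311 over all animals, but -0.577 and -0.0342 within these ranges of numbers, and those of lactotrophs 0.140, but -0.256 and -0.00690. Within animals 23 to 42, without animal 43, the r was 0.423 for the mitochondrial ribosome and 0.318 for the cytosolic ribosome. It was 0.676 there for cytochrome c and assembly and supercomplex factors, and 0.425 for defence against reactive oxygen. Markers of gonadotrophs had -0.246 and those of lactotrophs -0.0285. The 3 erythroid markers had 0.417 over all animals (0.371 without animal 43). Within animals 1 to 22, 23 to 43 and 23 to 42 they had 0.403, 0.305 and 0.139. The 1 corticotroph and melanotroph marker that passed had -0.515 (-0.403), and -0.0656, -0.487 and -0.171 within these ranges. The remaining marker lists lay between -0.284 (striated muscle) and 0.378 (thyrotrophs), each with 2 genes.

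**Figure D5:**
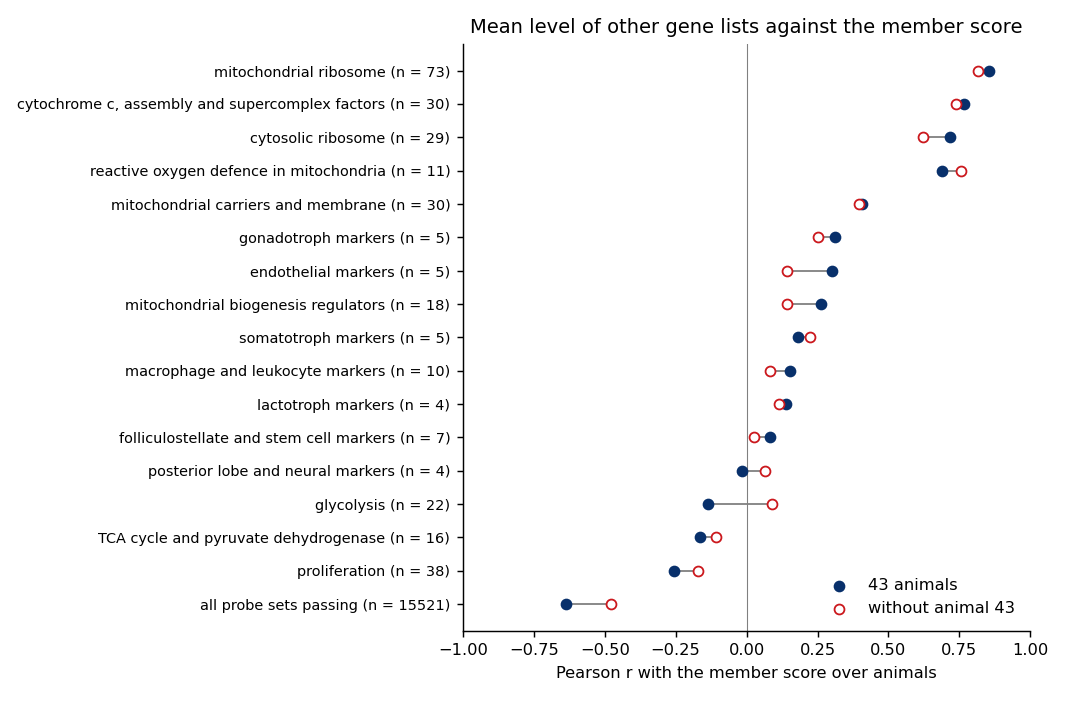
Pearson r over animals between the member score and the mean centred level of other gene lists with at least 4 genes passing (rows, number of genes in brackets), with 43 animals (filled) and without animal 43 (open). The mitochondrial ribosome has the highest r, 0.853, and all probe sets passing the lowest, -0.636.

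On the actin difference 11.2% of all probe sets were higher and 19.3% lower. Of 73 genes of the mitochondrial ribosome 25 were higher and 10 lower. Of 29 genes of the cytosolic ribosome 20 were higher and 0 lower, and of 22 genes of glycolysis 3 were higher and 8 lower. For the citric acid cycle these counts were 4 and 2 of 16, for cytochrome c and assembly and supercomplex factors 9 and 5 of 30, for carriers and membrane proteins 9 and 6 of 30, for regulators of biogenesis 5 and 3 of 18, and for defence against reactive oxygen 3 and 2 of 11. Without animal 43 none of these lists had more than 2 genes higher or more than 1 lower, against 0.522% and 0.999% of all probe sets.

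Members were last compared with the level of mitotic genes. Since no label gives pituitary weight, the proliferation score, the mean centred level of 38 mitotic genes, was used, and 15483 probe sets were fitted. The relation of this score to pituitary weight could not be tested. No member rose with the score, against 3.96% of all probe sets, and 1 fell (1.23%), against 3.54%. At an unadjusted p under 0.05, 3 members were higher and 14 lower, against 11.5% and 12% of all probe sets. The median slope of the members was -0.10 log2 units per unit of the score, and 55 of 81 slopes were below 0, against 50.3% of all probe sets. Without animal 38, whose score stood apart, the median slope was -0.26, 65 slopes were below 0 against 47.1% of all probe sets, and 1 member was higher and 26 lower at an unadjusted p under 0.05, against 11.5% and 10.1% of all probe sets. The member score had an r of -0.258 with the proliferation score over 43 animals. Within animals 1 to 22 that r was -0.163, within animals 23 to 43 0.0260 and within animals 23 to 42 0.294. The mean member score was -0.0440 in animals 1 to 22 and 0.0344 in animals 23 to 42. The member that fell was Ndufaf5, an assembly factor of complex I that modifies a core subunit. It ranged from 8.36 in animal 13 to 9.64 in animal 43 (median 9.05) and had a slope of -0.56 ± 0.18 (SE, n = 43, adjusted p = 0.0460 by limma). Without animal 43 its slope was -0.47 ± 0.18 (adjusted p = 0.0997), which did not pass. No member was then called in either direction by limma, against 2.76% of all probe sets higher and 2.95% lower, with 3 members higher and 5 lower at an unadjusted p under 0.05, against 9.74% and 12.3% of all probe sets.

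The next lowest by t did not pass. Ndufaf8, an assembly factor, had a slope of -0.39 ± 0.14 (adjusted p = 0.0686), Cox7a2l, a supercomplex factor, -0.37 ± 0.13 (adjusted p = 0.0711), Sdhd -0.38 ± 0.15 and Ndufa6 -0.43 ± 0.17 (both adjusted p = 0.115). The highest were Ndufa12 with 0.34 ± 0.13 (adjusted p = 0.110), Ndufs1 with 0.23 ± 0.10 (adjusted p = 0.125), Cox4i2 with 0.57 ± 0.28 (adjusted p = 0.211), Ndufb7 with 0.16 ± 0.11 (adjusted p = 0.362) and Ndufb10 with 0.17 ± 0.13 (adjusted p = 0.456). The score itself was set apart by animal 38, at -0.87, against -0.35 to 0.37 in the others. Without that animal 1.80% of all probe sets and 0 members were higher, and 1.72% of all probe sets and 1 member lower. That member was Ndufa7 (slope -0.65 ± 0.20, limma adjusted p = 0.05 after rounding, just under the threshold), and Ndufaf5 no longer passed.

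Over all probe sets 3.54% fell with the proliferation score, 2.95% without animal 43 and 1.72% without animal 38. Of 29 genes of the cytosolic ribosome 19 fell, as did 15 without animal 43 and 10 without animal 38, but 0 with a term for a step in animal numbers between 22 and 23. With that step limma called 0.252% of all probe sets and 0 members lower, with 1 member higher and 3 lower at an unadjusted p under 0.05, against 6.64% and 5.57% of all probe sets. The step splits the animals into 22 and 21, the sizes of the high and low ends of pituitary weight. No label says whether the numbers follow weight, so what the step takes out is not known. Of 73 genes of the mitochondrial ribosome 3 fell, 1 without animal 43, 2 without animal 38 and 0 with the step. Tfam fell with a slope of -0.53 ± 0.14 (adjusted p = 0.0130), Vdac3, a channel of the outer membrane, with -0.41 ± 0.12 (adjusted p = 0.0252) and Etfa, an electron carrier of fatty acid oxidation, with -0.64 ± 0.19 (adjusted p = 0.0298). Dlst of the citric acid cycle rose with 0.46 ± 0.10 (adjusted p = 0.00334), and Pfkl, a phosphofructokinase of glycolysis, with 0.95 ± 0.17 (adjusted p = 0.000744). Of these 5 genes only Pfkl passed under each of the 3 alternatives, with an adjusted p of 0.00167 without animal 43, 0.0157 without animal 38 and 0.00948 with the step. Tfam and Dlst passed without animal 43 (adjusted p = 0.0197 and 0.00597) but not without animal 38 (0.0645 and 0.0515) or with the step (0.266 and 0.127). Etfa passed without animal 38 (adjusted p = 0.0399) but not without animal 43 (0.0701) or with the step (0.517), and Vdac3 in none of them (0.0582, 0.0584 and 0.384).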

How the data were processed

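Gene expression was measured on rat expression arrays (1 biotin-labelled sample per array) in 43 animals, which formed 1 group. The authors deposited intensity values, 1 for each probe set on each array, scaled so that the mean without the lowest and highest 2% was 500.17 to 500.22 on every array. The summarising program was not given in the sources used here. Precision is limited by how many arrays there are. Of 31099 probe sets 57 were controls and 436 were annotated to several genes, and these were not named. No 2 arrays were identical. Values were taken as log2(intensity + 16), which understates the change of dim probe sets. Linear models were fitted with limma 3.58.1 (lmFit and eBayes, R 4.3.3), with 1 covariate each, over all probe sets passing the filter, and were tested on simulated data. The proliferation score was the mean of 38 centred mitotic genes, which were left out of its fit. Permutation tests were 2-sided with 100000 permutations. Genes described in full were, per complex, those with the largest and smallest SD, 5 from each end of t on the proliferation score, the 3 at each end on the actin and GAPDH differences, isoform pairs, the 10 genes most alike the member score, and markers. Others were named after their values were seen. The members and lists were chosen with earlier results of these data known. Alternatives covered the pseudocount, filter, normalization, probe sets, animals left out and covariates. Weight classes were not compared.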

Additional observations from a re-analysis of the deposited data

How the results depend on the processing

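The pseudocount (1 or 64), averaging the probe sets of a gene and leaving out animal 38 moved no count of calls by more than 1.5 times, and neither did the proliferation score as a further covariate on the control differences. Quantile normalization gave 12 members higher and 10 lower on the actin difference, against 4.52% and 6.35% of all probe sets. The mean pairwise r was then 0.121. Subtracting array medians gave 39 and 7, against 13% and 13.5% of all probe sets, and a mean pairwise r of 0.298. It also gave 1 member higher on the proliferation score, against 6.54%. Without animal 43 there were 4 higher and 0 lower on the actin difference and 0 and 0 on the GAPDH difference. Adding a step between animals 22 and 23, chosen after seeing the data, gave 7 and 0, and 0 and 0. Without animals 39 to 43, also chosen after seeing the data, all of these counts were 0, the median SD was 0.145 and the mean pairwise r 0.261. With the actin and GAPDH differences regressed out the median SD was 0.146 and the mean pairwise r 0.222. With the step regressed out the mean pairwise r was 0.170. The single member lower on the proliferation score became 0 without the filter, after quantile normalization or subtraction of array medians, without animal 43 with or without the step, without animals 39 to 43, with the step, with the control differences as covariates, and in animals 1 to 22 or 23 to 43 alone. It is also 0 with assembly factors left out and with the stricter filter, both of which remove Ndufaf5 itself and so test nothing of it. The order of animal numbers is not a label of any group, and whether it follows pituitary weight was not tested. Among slopes of single genes, 276 kept direction and side of the threshold under an alternative, 42 no longer passed, 1 newly passed and 3 changed sign. Slopes that had not passed in the main fits and still did not pass count as kept. Without animal 43, 12 slopes no longer passed and 10 were kept. Without animals 39 to 43, 11 no longer passed, 2 changed sign and 9 were kept, none of which had passed in the main fits. The 3 that changed sign were Ndufb7 on the proliferation score in animals 1 to 22 (-0.0129), and Ndufs7 without animals 39 to 43 on the actin (0.10) and GAPDH (0.43) differences. The cause was not tested. No paired analysis was possible because the animals form 1 group.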
